A study of Mus musculus with 6 samples.

Results

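CCL1, CCL17, CCL18, CCL20, CCL22, CCL24 and CXCL16 are chemokines that draw lymphocytes, dendritic cells or eosinophils. They were found by name in the deposited table of human macrophage transcripts, as 7 of 20036 genes. The macrophages were THP-1, an established human line from acute monocytic leukaemia, treated with the phorbol ester PMA at 100 ng/ml for 48 h, which turns these monocyte-like cells into adherent macrophage-like cells. In the melittin group (3 libraries) tumour cells sat above a porous Transwell membrane and were co-cultured for 48 h with 3 µg/ml of melittin, the membrane-lysing peptide of bee venom. The control group (3 libraries) is labelled NC, and no label states whether its wells held tumour cells or a vehicle. No label gives a further culture time after PMA for the controls either. Melittin, co-culture and added time in culture therefore cannot be told apart, and a change with melittin below means a difference between these groups. The labels name 1 cell line and no separate cultures. The p-values therefore reflect the spread among these samples alone, and this spread may be technical.

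Chemokines are small secreted proteins that bind G protein-coupled receptors on leukocytes and set the direction in which those cells move. Macrophages release different sets of them according to their state, and CCL17, CCL18, CCL22 and CCL24 are commonly listed as products of alternatively activated (M2) macrophages, the state that the title of the series names. Each has its own audience: CCL20 acts on CCR6 of Th17 cells, B cells and immature dendritic cells, CCL1 on CCR8 of regulatory and Th2 cells, and CCL17 and CCL22 on CCR4 of Th2 and regulatory T cells. CCL24, also called eotaxin-2, acts on CCR3 of eosinophils, and CXCL16 on CXCR6 of effector and resident T cells. CCL18 attracts naive T cells and its receptor is less firmly settled. The Gene Ontology terms in the deposited table gave lymphocyte chemotaxis to 7 of 7 of these genes, a term carried by 33 genes of the table. CCL1 and CCL24 carried eosinophil chemotaxis, and no term naming dendritic cells was attached to any of the 7.

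Library totals were 16001423 to 19597781 counts, and 1 count corresponded to 0.0471 to 0.067 CPM, the unit of the levels below (the count divided by the library size after TMM, edgeR's scaling between libraries). All 20036 identifiers were human although the organism label reads mouse. Replicates differed by more than counting noise (chi-square per degree of freedom 1.73 to 1.76 for pairs of controls, 2.23 to 3.92 for pairs of melittin libraries), so each library was counted once. Of 18 macrophage markers, 17 were tested, 7 rose and 8 fell, beside 38.1% higher and 38.3% lower over all tested genes. Without TMM scaling, that is on library totals alone, 4 of these markers rose and 12 fell. The summed level of the list was 4023 to 4058 CPM in controls against 3555 to 3564 CPM in melittin libraries. The 4 markers with the smallest adjusted p all fell. Mean levels went from 215.9 to 30.8 CPM for MSR1 and from 722.2 to 235.1 CPM for CSF1R. For PTPRC they went from 221.8 to 84.1 CPM and for CD163 from 76.5 to 9.89 CPM. FCGR2A was among the markers that rose, from 4.07 to 47.6 CPM. CD68, a defining macrophage marker, had 1 count in all libraries together. Of 19 prostate and epithelial markers, 6 were at 0 in every library, EPCAM, KRT18 and KRT19 among them. Of 15 T, NK and B cell markers 14 were in the table, and CD3D, CD8A and MS4A1 were at 0. The sum of that list went from between 32.1 and 34.6 CPM in controls to between 137.7 and 143.6 CPM, nearly all of it GNLY, a cytolytic granule protein (29.5 ± 1.91 and 129.8 ± 3.05 CPM, SD, n = 3). The 2 genes of that list that were tested, GNLY and NKG7, both rose, where 38.1% of all tested genes did. NKG7, also a cytotoxic cell marker, went from 3.23 ± 0.447 to 9.96 ± 0.781 CPM. The part of such marker changes in the results on chemokines was not tested.

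CCL20, CCL1, CXCL16, CCL24 and CCL22 rose with melittin, from 3.07-fold for CCL20 to 39-fold for CCL22, while CCL17 and CCL18 stayed at a few counts in every library. The comparison asks how the melittin co-culture changed the transcripts for chemokines that recruit lymphocytes and related cells. CCL20 was among the most abundant transcripts of the cells in both groups, and CCL22 had the steepest rise from almost nothing. In the quasi-likelihood test of edgeR (adjusted after Benjamini and Hochberg) these 5 genes passed an adjusted p of 0.05, where 76.4% of all 12029 tested genes passed, 38.1% as higher and 38.3% as lower. Their groups did not overlap in CPM, as in 77.4% of tested genes, with melittin on the higher side in 38.3%. They also passed a test against a change of 1.5-fold, which 29.1% of tested genes passed, 14.6% as higher. CCL22 cleared the low-count filter (0.566 CPM in at least 3 libraries) through its melittin libraries alone, with 0 of 3 control libraries at that level, so it had to differ to be tested at all. For CCL24 it was reached by 2 of 3 control and 3 of 3 melittin libraries. The count of 5 is a description and no evidence about the chemokines as a set. In bulk RNA, more transcript per cell and more cells that make it cannot be told apart.

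**Figure D1:**
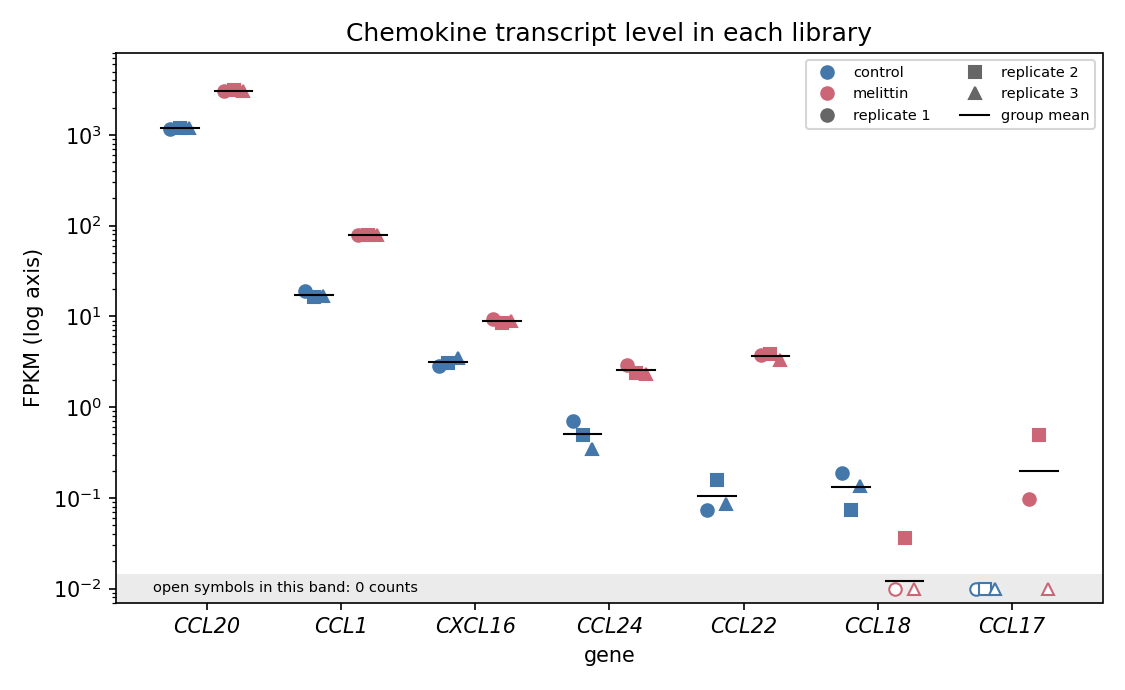
Each point is the deposited FPKM (counts scaled to gene length and library total, log axis) of 1 chemokine in 1 library, with controls in blue, melittin libraries in red, the replicate by symbol and the group mean as a black line; open symbols in the grey band have 0 counts. CCL20 lies near 1180 and 3084 FPKM, far above the other 6 genes, and the groups do not overlap for the 5 genes on the left.

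CCL20, the only known chemokine ligand of CCR6, was the dominant transcript of the 7. It lies on chromosome 2, 227805739 to 227817564, plus strand (GRCh38). Its level was 1721, 1745 and 1744 CPM in control replicates 1, 2 and 3 and 5277, 5412 and 5295 CPM in melittin replicates 1, 2 and 3. All melittin libraries lay far above all controls, and the libraries of a group differed by only a few percent. With means of 1736 ± 13.3 and 5328 ± 73.3 CPM (SD, n = 3), the log2 fold change was 1.62 (SE 0.0174) and the edgeR adjusted p was 1.41e-31. Per length, at 1180 ± 8.52 FPKM in controls and 3084 ± 35.6 FPKM with melittin, it ranked 18th and 8th among all genes of the table by mean FPKM. The 7 chemokines together took 0.189 to 0.191% of all counts in controls and 0.496 to 0.507% with melittin, and CCL20 made up 98.1 to 98.3% of their summed FPKM in controls and 97 to 97.1% with melittin.

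CCL1, the ligand of CCR8, was next in abundance. It lies on chromosome 17, 34360328 to 34363233, minus strand. The control libraries held 10.4, 8.95 and 9.3 CPM and the melittin libraries 50.3, 51.2 and 50.3 CPM. Each melittin library thus stood above each control, and the melittin values were closer to each other than the controls were. Means were 9.54 ± 0.747 and 50.6 ± 0.49 CPM (SD, n = 3), a 5.3-fold rise (log2 fold change 2.41, SE 0.0727, edgeR adjusted p = 2.97e-21). Its rank by mean FPKM moved from 2212 in controls to 418 with melittin.

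CCL22, a ligand of CCR4, was close to undetected in controls and clearly present with melittin. The gene lies on chromosome 16, 57358783 to 57366189, plus strand. Control replicates 1, 2 and 3 held 4, 9 and 4 counts, and melittin replicates 1, 2 and 3 held 183, 219 and 156. On the scaled measure that was 0.197, 0.424 and 0.231 CPM against 11.9, 12.2 and 10.5 CPM, with no overlap. Means of 0.284 ± 0.122 and 11.5 ± 0.929 CPM (SD, n = 3) gave a log2 fold change of 5.29 (SE 0.227, edgeR adjusted p = 8.18e-18). From the summed counts of each group (17 and 558) the ratio was 40.0, with an exact 95% interval of 24.8 to 69.2 that covers counting error only. Of the 12029 tested genes, 10 had a larger rise. CCL22 was among the tested genes only because its melittin libraries reached the low-count filter, so this rank and the adjusted p are descriptions.

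CCL17, the other ligand of CCR4, lies 38577 bp from CCL22 on the same strand (chromosome 16, 57404767 to 57416063) and was not tested. All 3 control libraries held 0 counts, and the melittin libraries held 1, 6 and 0. Melittin replicate 2 held 6 of the 7 counts, and melittin replicate 3 was at 0 like the controls. A count of 0 over the control group allows a level of up to 0.051 CPM (3 counts over the group), against 0.145 CPM over the melittin group. Over the group sums (0 and 7 counts) the exact 95% interval of the ratio started at 1.76, for counting error only. With no low-count filter the edgeR adjusted p was 0.0305, and without melittin replicate 2 it was 0.424, so the call rests on that library. The 2 ligands of CCR4 were thus at very different levels with melittin: 3.64 ± 0.296 FPKM for CCL22 and 0.197 ± 0.262 FPKM for CCL17 (SD, n = 3).

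CCL24, the eosinophil attractant, rose from a low level. It lies on chromosome 7, 75810825 to 75823356, minus strand. Its counts were 19, 14 and 8 in control libraries and 70, 68 and 55 in melittin libraries. In scaled terms the controls held 0.935, 0.659 and 0.462 CPM and the melittin libraries 4.55, 3.78 and 3.69 CPM. The groups did not overlap, and control replicate 1 was the highest of the controls. The mean went from 0.686 ± 0.237 to 4.01 ± 0.474 CPM (SD, n = 3), 5.71-fold higher (log2 fold change 2.51, SE 0.263, edgeR adjusted p = 1.74e-09).

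CXCL16 differs from the others in being made as a transmembrane protein that also binds oxidised lipoprotein and is released by ADAM proteases. The gene lies on chromosome 17, 4733533 to 4739928, minus strand. Control libraries held 7.33, 7.96 and 8.9 CPM and melittin libraries 28.4, 25.8 and 27.1 CPM, with no overlap. The mean went from 8.06 ± 0.789 to 27.1 ± 1.29 CPM (SD, n = 3), 3.37-fold higher (log2 fold change 1.75, SE 0.0916, edgeR adjusted p = 7.28e-16). It is the only one of the 7 that overlaps other genes, ZMYND15 and MED11 on the opposite strand, and whether counting used the strand is not given in the sources used here. ZMYND15 had 12 to 31 counts per library and MED11 15 to 42, against 149 to 463 for CXCL16. Neither neighbour passed the test (adjusted p = 0.136 and 0.286 by edgeR).

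CCL18, a chemokine of alternatively activated macrophages, was barely present and was not tested. It lies on chromosome 17, 36064272 to 36072032, plus strand. Control libraries held 5, 2 and 3 counts and melittin libraries 0, 1 and 0. Every control library was above every melittin library, by as little as 1 count. The ratio of control to melittin over the group sums (10 and 1 counts) was 8.2, with an exact 95% interval of 1.17 to 355.8 for counting error only. With no low-count filter the edgeR adjusted p was 0.091, and by limma on log2(FPKM + 0.1) with no filter it was 0.00381, lower with melittin. These fits differ in tool, scaling and pseudocount at once, on a gene with a few counts. CCL18 is the one chemokine of the 7 whose values pointed down.

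**Figure D2:**
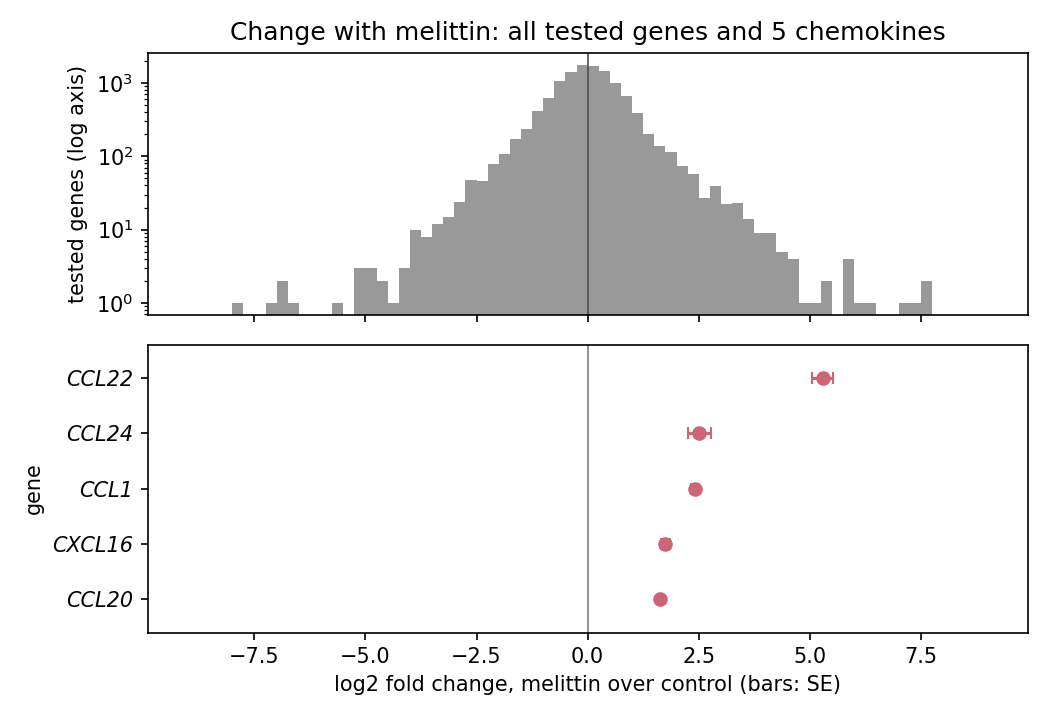
The upper panel counts all 12029 tested genes (log axis) by log2 fold change of melittin over control, and the lower panel gives the 5 tested chemokines with the SE. The 5 points run from 1.62 for CCL20 to 5.29 for CCL22, on the right of a distribution centred near 0 (median −0.007).

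Per length, the order of the 7 in controls was CCL20, CCL1, CXCL16, CCL24, CCL18, CCL22 and CCL17. CCL20 stood 67.8-fold above CCL1, CCL1 5.57-fold above CXCL16 and CXCL16 6.13-fold above CCL24, all with ranges over the 3 libraries that did not overlap. CCL18 and CCL22, at 0.132 ± 0.0586 and 0.105 ± 0.0455 FPKM (SD, n = 3), overlapped and could not be ordered. With melittin the first 3 places were the same, and CCL22 (3.64 FPKM) passed CCL24 (2.54 ± 0.309 FPKM), a 1.43-fold gap without overlap. CCL17 and CCL18 came last, with overlapping ranges that both included 0.

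Ratios of 2 genes within 1 library do not depend on how libraries are scaled, and they were taken against CCL20 for length-scaled counts. In controls CCL20 was 61.8, 72.7 and 69.8 times as high as CCL1 in replicates 1, 2 and 3, and with melittin 39.1, 39.4 and 39.2 times. The CCL1 to CCL20 ratio was thus 1.73-fold higher with melittin (ratio of geometric means), and each melittin library stood above each control. For CXCL16 the values overlapped: CCL20 was 411.3, 384.1 and 343.3 times as high in controls and 326.1, 368.0 and 341.8 times with melittin. For CCL22 the gap narrowed from between 7532 and 16002 times in controls to between 811.4 and 926.7 times with melittin, and for CCL24 from between 1683 and 3448 times to between 1060 and 1313 times. Exact two-sided permutation tests over the 6 libraries gave p = 0.1 for CCL1, CCL22 and CCL24, the smallest p that 3 against 3 allows, and p = 0.2 for CXCL16 (adjusted over the 4 pairs, 0.133 and 0.2). This design cannot bring such a test below 0.05. The pairs with CCL22 and CCL24 were added after the counts had been seen, and pairs with CCL17 or CCL18 were left out because a library was at 0.

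**Figure D3:**
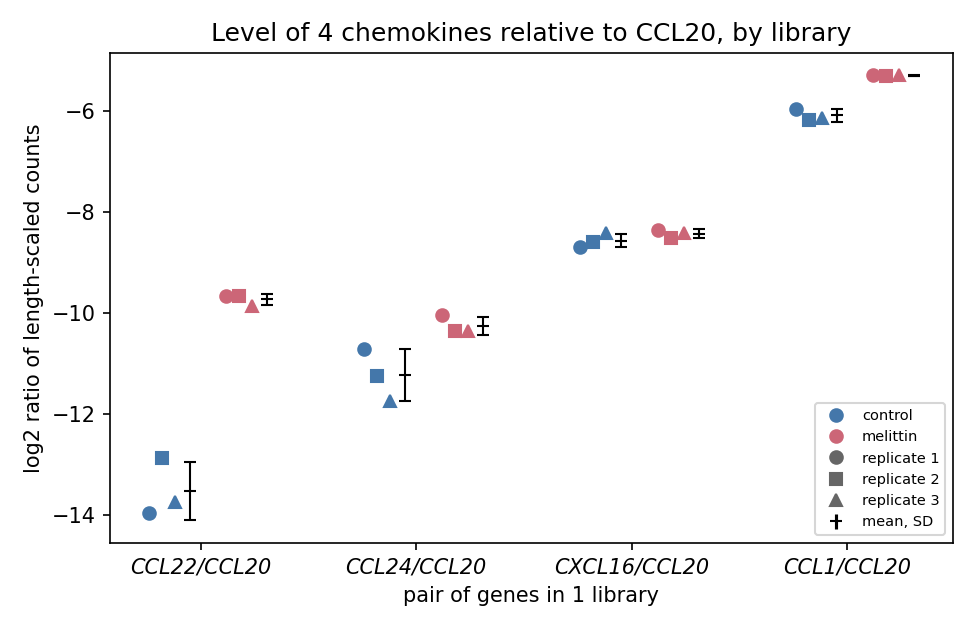
The log2 ratio of length-scaled counts of 4 chemokines to CCL20 is plotted for each library, with the mean and SD (n = 3) beside the points of each group. The groups lie apart for CCL22, CCL24 and CCL1 and overlap for CXCL16.

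The receptors of these chemokines had at most 6 counts in any library. CCR4, CCR6, CCR8, CCR3 and the atypical receptor ACKR1 had 0 counts in each of the 6 libraries, which allows up to 0.051 CPM over the controls and 0.0622 CPM over the melittin libraries. CXCR6, the receptor of CXCL16, held 4, 3 and 4 counts in control libraries and 2, 6 and 6 in melittin libraries. ACKR2, a scavenger of inflammatory CC chemokines, had 4, 0 and 4 counts against 0, 5 and 0. None of these 7 receptor genes reached the filter, and differences between the groups were not detectable with so few counts. CD68, a gene of every macrophage, was also near 0 here, and whether the counting step loses genes was not tested.

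Proteases that release or trim these ligands went different ways. Of 7 such genes 4 rose, 1 fell and 2 did not pass (2 fell without TMM scaling). Over all tested genes 38.1% rose and 38.3% fell. CTSG and ELANE reached the filter in melittin libraries alone and so had to rise. Of the other 5 genes 2 rose and 1 fell, with a median log2 fold change of 0.03, against −0.007 over all tested genes. ADAM10, the main sheddase of CXCL16, stood at 363.8 ± 6.95 and 372.0 ± 11.2 CPM (edgeR adjusted p = 0.273, and lower at −0.20 on the log2 scale without TMM scaling). ADAM17, a related sheddase, fell from 278.9 ± 5.9 to 206.6 ± 4.83 CPM (SD, n = 3). DPP4, which cuts the amino terminus of CCL22, was at 4.16 ± 0.918 and 4.15 ± 1.4 CPM (edgeR adjusted p = 0.92). MMP9, a gelatinase, rose from 751.7 ± 6.6 to 1038 ± 48.2 CPM, ELANE (neutrophil elastase) from 0.338 ± 0.137 to 1.63 ± 0.546 CPM, and the gene for carboxypeptidase M (symbol CPM) from 164.5 ± 1.51 to 455.5 ± 13.7 on the same scale.

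Other chemokines for lymphocytes, eosinophils and dendritic cells did not all follow the 5 that rose. Of 21 such genes only 4 were abundant enough to be tested, of which CCL5 rose and CXCL10, CXCL11 and CCL28 fell. The shares over all tested genes were 38.1% higher and 38.3% lower. CXCL10 and CXCL11 reached the filter in control libraries alone and so had to fall. CCL5, an attractant of T cells and monocytes, went from 73.6 ± 2.54 to 399.0 ± 7.84 CPM (SD, n = 3), a rise of 5.43-fold beside the 5.3-fold of CCL1. CXCL10 and CXCL11, interferon-induced ligands of CXCR3 on effector T cells, fell: CXCL10 went from 16.4 ± 1.86 to 0.13 ± 0.12 CPM and CXCL11 from 3.61 ± 0.636 to 0.103 ± 0.0324 CPM. CCL28, a mucosal ligand of CCR10 and CCR3, went from 20.9 ± 2.02 to 7.55 ± 0.885 CPM. Of the 21, 5 were at 0 in every library, and CCL19 and CCL21, the ligands of CCR7, had 2 counts each in all libraries together.

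Interleukin-4 and interleukin-13 signalling induces CCL17, CCL18, CCL22 and CCL24 in macrophages. Of 23 genes of this list 14 were tested, and 11 rose and 3 fell, where 38.1% of all tested genes rose and 38.3% fell. Without TMM scaling the numbers were 10 and 4. SOCS1 reached the filter in melittin libraries alone, and the other 13 had a median log2 fold change of 0.58. The receptor chain IL4R was at 83.2 ± 1.52 and 88.7 ± 2.39 CPM, and its direction depended on the scaling (log2 fold change 0.09, edgeR adjusted p = 0.0355, and −0.14, adjusted p = 0.00256, without TMM scaling). STAT6, the transcription factor below it, fell from 448.2 ± 9.61 to 349.2 ± 10.0 CPM. CISH and SOCS1, feedback inhibitors of cytokine receptors, were among those that rose, CISH from 0.897 ± 0.196 to 15.8 ± 0.966 CPM (SD, n = 3). JAK1, a receptor kinase, rose by 0.72, IL4I1, an amino acid oxidase, by 1.44 and CHI3L1, a chitinase-like protein, by 0.69 on the log2 scale. PPARG and FABP4, a lipid-sensing nuclear receptor and its target, had log2 fold changes of −0.84 and −2.23. The listed targets MRC1, ALOX15, F13A1 and ARG1 had at most 8 counts in any library, and CLEC10A and MAOA had 0. Other listed targets were tested and rose. TGM2 went from 8.8 ± 1.06 to 13.1 ± 0.827 CPM and CD209 from 9.58 ± 1.2 to 13.6 ± 0.829 CPM. FCER2 went from 0.681 ± 0.249 to 1.44 ± 0.103 CPM.

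TSLP and GM-CSF are cytokines that induce CCL17 and CCL22 in dendritic cells, acting through receptors that share chains with other cytokines. Of 8 genes of this list 6 rose and 0 fell, beside 38.1% higher and 38.3% lower over all tested genes, and 1 fell without TMM scaling. CRLF2 and CSF2 reached the filter in melittin libraries alone and so had to rise. Of the other 6 genes 4 rose, with a median log2 fold change of 1.36. CRLF2, the TSLP receptor chain, held 0, 4 and 0 counts in control libraries and 221, 240 and 236 in melittin libraries. IL7R, its partner chain, went from 17.2 ± 0.725 to 57.1 ± 2.18 CPM (SD, n = 3). CSF2, which encodes GM-CSF, went from 0.209 ± 0.0746 to 12.6 ± 0.757 CPM, and the shared receptor chain CSF2RB from 72 ± 2.11 to 205.7 ± 3.02 CPM. TSLP itself was at 2.16 ± 0.248 and 2.78 ± 0.504 CPM (edgeR adjusted p = 0.141).

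NF-kB and AP-1 are transcription factor families through which inflammatory signals reach chemokine genes, CCL20 among them. Of 16 subunit and inhibitor genes 12 rose, 3 fell and 1 did not pass (median log2 fold change 0.55), against 38.1% higher and 38.3% lower over all tested genes. Without TMM scaling 9 rose and 4 fell. NFKBIA, the inhibitor that NF-kB itself induces, went from 183.4 ± 2.94 to 389.7 ± 1.83 CPM (SD, n = 3), and NFKBIZ, a nuclear co-factor, from 21.5 ± 0.777 to 63.9 ± 3.16 CPM. The AP-1 subunit FOS went from 80.8 ± 2.02 to 161.3 ± 4.35 CPM, and FOSL2 rose by 0.71 on the log2 scale. NFKB1, RELB and NFKBIE had log2 fold changes of −0.30, −0.18 and −0.19.

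Genes of dendritic cell maturation, the setting in which CCL17 and CCL22 are best known, were split. Of 21 genes 18 were tested, 10 rose and 6 fell, or 7 and 8 without TMM scaling, where 76.4% of all tested genes passed in either direction. LAMP3, CD80 and IDO1 reached the filter in melittin libraries alone, and CD1A and CD1E in control libraries alone. Of the other 13 genes 7 rose and 4 fell, with a median log2 fold change of 0.20. CCR7, the receptor that takes mature dendritic cells to lymph nodes, went from 0.623 ± 0.206 to 35.9 ± 2.3 CPM (SD, n = 3). CD40, a co-stimulatory receptor, went from 20.3 ± 0.886 to 70.5 ± 2.27 CPM and CD83, a maturation marker, from 76.6 ± 1.89 to 174.8 ± 0.504 CPM. MARCKSL1 fell from 200.3 ± 1.01 to 107.7 ± 1.64 CPM. The lipid-presenting molecules CD1A, CD1C and CD1E had log2 fold changes of −5.71, −2.17 and −6.73, and CLEC9A and XCR1, which define a lineage of dendritic cells, had at most 2 counts each in all libraries.

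**Figure D4:**
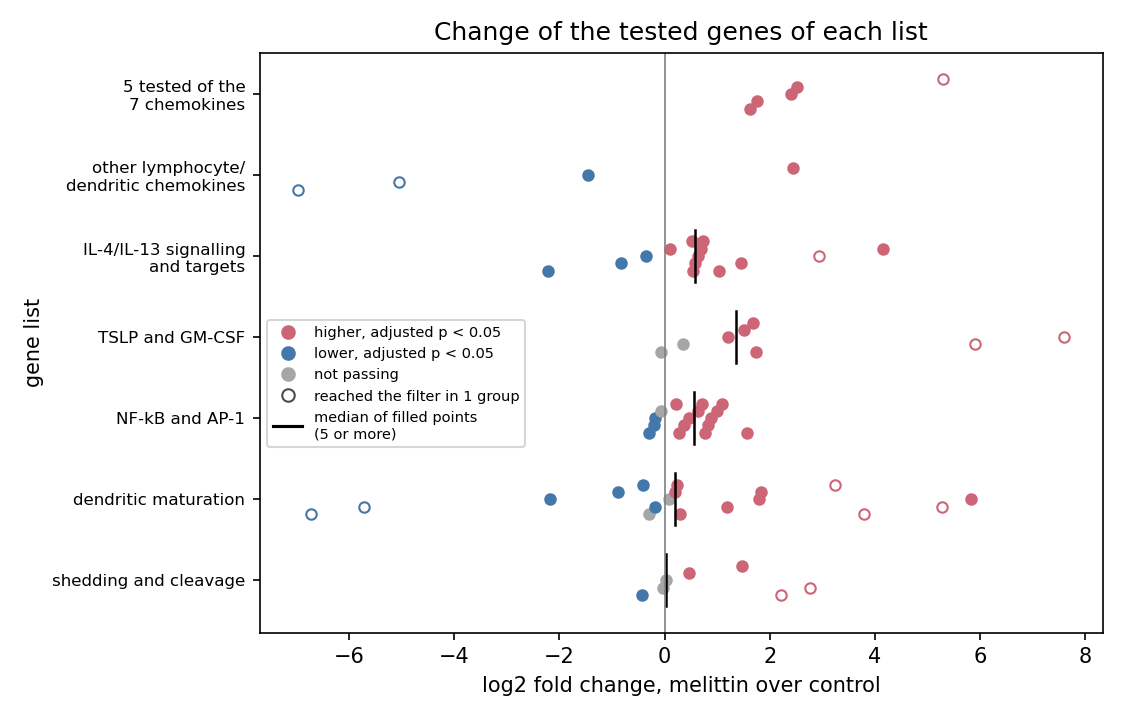
Each point is the log2 fold change of 1 tested gene, in red or blue where it passed as higher or lower and in grey where it did not, open where it reached the low-count filter in 1 group alone, with the median of the filled points as a black line for lists with at least 5 of them. The filled points of the TSLP and GM-CSF genes have a median of 1.36 and those of the cleavage genes one of 0.03, and many of the farthest points are open.

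The 7 genes lie on 4 chromosomes, and among the genes beside them some rose, only CIAPIN1 fell and most held few counts. CX3CL1, between CCL22 and CCL17, had 1 count in all libraries, and CIAPIN1, beyond CCL17, went from 30.3 ± 0.892 to 20.3 ± 0.844 CPM (SD, n = 3), lower with melittin. PLLP, on the far side of CCL22, did not pass (edgeR adjusted p = 0.126). CCL13, 1717 bp from CCL1, held 15 counts in the control group and 25 in the melittin group. CCL3, a monocyte attractant 16223 bp from CCL18, went from 2.82 ± 0.279 to 13.8 ± 0.518 CPM, while CCL23 on its other side had 10 and 6 counts. CCL3 has near-identical copies with which reads may be shared. Beside CCL24, CCL26 had 5 and 7 counts and RHBDD2 rose from 39.7 ± 2.78 to 97 ± 1.29 CPM. Beside CXCL16, ARRB2 rose by 0.40 on the log2 scale. The neighbours of CCL20, SCYGR8 and DAW1, held 0 counts and 7 and 24 counts, and TM4SF5 near CXCL16 held 0.

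Genes whose profile over the 6 libraries was most like that of a chemokine were sought among 11345 genes, by the Euclidean distance between log2(CPM + 1) values centred on the control mean. For CCL20 they were AHCYL1 and ENO2, at distances of 0.0863 and 0.0886, and ENO2, a glycolytic enolase, went from 25.5 ± 0.428 to 79 ± 1.38 CPM (SD, n = 3). For CCL1 they were SAT1, the enzyme that starts polyamine breakdown, and SLC25A37, a mitochondrial iron importer, at 0.128 and 0.129. SAT1 went from 368.3 ± 11.9 to 1741 ± 36.9 CPM. For CXCL16 they were AKAP17A and ONECUT2, at 0.115 and 0.12. For CCL22 they were FCGR2A, an activating Fc receptor, and PALLD, an actin-binding protein, at 0.262 and 0.368, and for CCL24 DPH7 and EGFL7, at 0.215 and 0.243. FCGR2A went from 4.07 ± 0.495 to 47.6 ± 4.21 CPM. On this scale the added 1 shrinks the change of low genes, so the genes named for CCL22 and CCL24 have a smaller fold change than these chemokines do.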

How the data were processed

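RNA of 3 control and 3 melittin libraries was measured. Per the labels' protocols, libraries were made from total RNA with an NEBNext Ultra II kit. Per the submitters' processing notes, the build was GRCh38. The sources used here name no aligner, counter, strand setting or annotation version. The deposited table holds raw read counts per gene and FPKM made by the authors, which equal the count per length and library total (relative deviation up to 2.2e-09 over values of at least 20 counts). No human sequence table was used here, so no sequence is shown.

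Counts were fitted with edgeR 4.0.16 (R 4.3.3): filterByExpr, TMM, glmQLFit, glmQLFTest and glmTreat at 1.5-fold, two-sided, Benjamini-Hochberg adjustment over 12029 genes, threshold 0.05. The SE is the log2 fold change divided by the square root of F. Alternatives used limma 3.58.1 and DESeq2 1.42.0. On simulated data of 11912 genes with the same group sizes, 83.6, 95.4 and 100% of genes changed 1.5-, 2- and 4-fold were recovered. Only 200 genes were changed there, up or down, whereas 76.4% of tested genes passed in the data. Recovery with so many changed genes was not simulated.

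The chemokines and lists were chosen with earlier results of these data known. Named are the 7 chemokines, their receptors, up to 4 passing genes per list with the smallest adjusted p (or the 2 most abundant), the nearest neighbours and the 2 most similar genes. Other genes were chosen after their values were seen. The summed level of the prostate and epithelial markers is not reported here.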

Additional observations from a re-analysis of the deposited data

How the results depend on the processing

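CCL1, CCL20, CCL22, CCL24 and CXCL16 kept their direction and stayed past the threshold in all 85 recomputed values (17 alternatives each), as did the 34 list genes named by the rule in the 576 values that could be had. ADAM10 and IL4R, named outside it, changed sign with library totals alone. CCL22 and the list genes CXCL10, CXCL11, ELANE, CRLF2, CSF2 and FOLH1 reached the main low-count filter in 1 group alone. Their direction was therefore fixed in advance wherever that filter was used, and its being kept there is no support. CCL22 ranged from 2.07 with limma on log2(FPKM + 1) to 5.71 without control replicate 2 on the log2 scale, and CCL24 from 1.23 to 2.79; the pseudocount compresses low genes by construction. With library totals alone the median of all genes was −0.238, the higher share of calls 33.6% against 49.8%, and CCL20 was at 1.39. CCL18 was the 1 chemokine called lower with limma on FPKM and no filter, and 6 chemokines were called higher by edgeR with no filter, CCL17 included.

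Same-numbered libraries did not deviate together (correlations of −0.0456, 0.0073 and −0.0207). The labels do not say what the number marks. With 3 libraries per group these correlations cannot settle whether same-numbered libraries shared a culture. The replicate block gave 9050 calls against 9190, and CCL22 had 5.29 in it.

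Counts in lists that moved: with library totals alone, and with limma on FPKM under pseudocounts of 0.1, 1 and 0.1 with no filter, 2 cleavage genes and 1 TSLP or GM-CSF gene fell and 4 macrophage markers rose; without the 20 most abundant genes in the totals 2 cleavage genes and 1 TSLP or GM-CSF gene fell. With no filter, 2 other lymphocyte chemokines, 2 epithelial and 5 lymphocyte markers rose and 1 lymphocyte marker fell. With limma on FPKM and no filter, 2 other lymphocyte chemokines and 4 lymphocyte markers rose, and 6 interleukin-4 genes and 1 lymphocyte marker fell. With at least 1 CPM in 3 libraries, 2 cleavage genes rose. Leaving out 1 library at a time gave 1 to 2 other lymphocyte chemokines that rose. Changes of the within-library ratio to CCL20 ran from 0.743 to 0.86 for CCL1, 3.59 to 4.13 for CCL22, 0.725 to 1.24 for CCL24 and 0.0745 to 0.205 for CXCL16. Few counts limit CCL17, CCL18 and the receptors.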

Other observations

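Some genes under the low-count filter had groups that did not overlap and are given as counts only, chosen after their values were seen. CXCL13, the B cell attractant that acts on CXCR5, had 4, 3 and 1 counts in controls and 7, 13 and 14 with melittin. IRF4, a transcription factor of alternatively activated macrophages and dendritic cells, had 0, 2 and 0 counts in controls and 11, 12 and 4 with melittin.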
